A study of Mus musculus with 6 samples.

Results

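The 34 genes described here are markers of the blood vessels of the embryonic brain: 19 endothelial genes, 6 genes of the blood-brain barrier and 9 pericyte genes. They were taken by name from a count table of 34866 genes, and all 34 were among the 15216 genes with enough reads to test. Bulk RNA-seq was made from E14.5 mouse forebrain in 3 mice whose Sap130 genotype is f/- and 3 littermates whose genotype is f/+. Both groups carry Emx1-cre and 1 floxed (f) Sap130 allele, and the other Sap130 allele is labelled minus in the first group and wild type in the second. SAP130 is a subunit of the Sin3 histone deacetylase corepressor complex. The libraries held 20775429 to 25999747 counts each, and 2 of them (labelled mutant 1 and control 1) carry the number SPF-539 in their titles while the other 4 carry SPF-552.

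Brain vessels grow into the embryonic forebrain from a plexus on its surface, led by endothelial tip cells that follow VEGF through the receptor KDR. Neural Wnt7 ligands, read by endothelial cells through ADGRA2 (GPR124) and RECK, switch on barrier genes, and PDGF-B from the endothelium recruits pericytes through PDGFRB. Emx1-cre acts in the dorsal telencephalic neural lineage, from which endothelial cells and pericytes do not descend. By the labels, these vascular cells still differ in Sap130 genotype between the groups, f/- against f/+. The part of that difference in the vascular values was not tested. Together the 34 genes held 918, 897 and 879 CPM in the libraries labelled mutant, against 921, 925 and 852 CPM in those labelled control.

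Sap130 itself had 138, 124 and 124 CPM (counts per 1e6 counts of the library, scaled by TMM factors) in the 3 libraries labelled mutant, against 82.8, 84.9 and 84.4 CPM in the 3 labelled control. It was higher in the libraries labelled mutant, by a log2 fold change of 0.61 (SE 0.076, adjusted p = 0.0116; adjusted p-values here are from the quasi-likelihood test of edgeR, Benjamini-Hochberg corrected across the genes tested). This goes against the genotype labels, so the groups are called by their labels throughout, and each direction below is that of the labels. A gene-level count does not separate exons inside the floxed stretch from exons outside it.

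The regions upstream of a few of the genes are given first because vascular promoters are known for binding sites of ETS factors such as ERG and FLI1, and of SOX factors such as SOX17 and SOX18. RefSeq (GRCm38.p6) promoter windows were matched for 23 of the 34 genes, with 27 windows in all. The motifs searched on both strands were GGAAGT (an ETS core; reverse complement ACTTCC) and ACAAAG (a SOX core; reverse complement CTTTGT), and in the windows shown no match of one overlaps a match of the other. The sequences below are the 250 bases before the annotated start, 5′ to 3′ on the gene's strand, with motif matches in capitals. Kdr, Flt1 and Eng are shown as endothelial receptor genes with an ETS match, Egfl7 (the second of its 3 windows) as the endothelial gene with the most negative log2 fold change, and Cldn5 as the vascular gene with the highest level per kb.
Kdr, chr5:75978456-75978705, minus strand, GRCm38.p6: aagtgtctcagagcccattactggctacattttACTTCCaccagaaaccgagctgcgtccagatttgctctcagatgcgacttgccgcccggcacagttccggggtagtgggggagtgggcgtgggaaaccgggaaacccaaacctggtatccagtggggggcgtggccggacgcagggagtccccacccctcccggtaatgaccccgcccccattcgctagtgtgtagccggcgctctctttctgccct
Flt1, chr5:147726012-147726261, minus strand, GRCm38.p6: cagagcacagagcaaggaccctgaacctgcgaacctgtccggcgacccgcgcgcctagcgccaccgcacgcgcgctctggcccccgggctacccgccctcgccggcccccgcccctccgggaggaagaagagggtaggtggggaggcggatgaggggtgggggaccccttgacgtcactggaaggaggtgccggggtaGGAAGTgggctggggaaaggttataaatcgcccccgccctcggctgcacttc
Eng, chr2:32646345-32646594, plus strand, GRCm38.p6: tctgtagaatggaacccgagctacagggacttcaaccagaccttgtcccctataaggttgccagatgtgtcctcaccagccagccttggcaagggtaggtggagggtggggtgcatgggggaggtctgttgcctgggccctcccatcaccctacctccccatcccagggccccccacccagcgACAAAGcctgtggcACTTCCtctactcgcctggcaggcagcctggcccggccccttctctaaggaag
Egfl7, chr2:26583615-26583864, plus strand, GRCm38.p6: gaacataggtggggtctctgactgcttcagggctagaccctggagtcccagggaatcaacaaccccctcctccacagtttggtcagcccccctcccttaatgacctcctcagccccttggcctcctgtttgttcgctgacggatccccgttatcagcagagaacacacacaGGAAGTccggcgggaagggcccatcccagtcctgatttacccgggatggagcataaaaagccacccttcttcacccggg
Cldn5, chr16:18776597-18776846, plus strand, GRCm38.p6: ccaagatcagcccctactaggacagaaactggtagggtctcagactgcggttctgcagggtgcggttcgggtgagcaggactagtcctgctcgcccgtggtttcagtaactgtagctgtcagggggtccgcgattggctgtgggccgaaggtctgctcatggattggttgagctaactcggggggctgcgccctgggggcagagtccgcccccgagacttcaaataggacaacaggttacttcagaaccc
The ETS core was in 9 of the 27 windows (33.3%), against 6485 of all 32851 windows of the same length (19.7%). By list, 6 of 14 endothelial windows, 1 of 5 barrier windows and 2 of 8 pericyte windows held it. The SOX core was in 5 of 27 windows (18.5%), against 16.5% of all windows. A match only describes the letters of these windows.

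The main question was whether vascular gene expression differed between the groups, and none of the 34 vascular genes passed the test. The count of genes called at an adjusted p under 0.05 was 0 of 34, beside 21 of 15216 genes in all (0.138%). At an unadjusted p under 0.05 the count was also 0 of 34, where 9.60% of all genes passed. Under DESeq2 0 of 34 were called (1.27% of all genes), under edgeR's likelihood-ratio test 0 of 34 (0.986%), with the title number as a block 0 of 34 (0.762%), and within the 4 SPF-552 libraries 0 of 34 (3.70% of 15236 genes). Unadjusted p was under 0.05 for 1 of 34 genes with the block (Adgra2), beside 13.1% of all genes, and for 4 of 34 within SPF-552 (Abcc9, Adgra2, Rgs5 and Slco1c1), beside 16.7% of all genes. Over all 6 libraries and without the block, the smallest adjusted p of any vascular gene by edgeR's quasi-likelihood test was 0.548.

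A p that misses the threshold does not show that levels were alike, so the intervals matter more here. All 34 of the 95% intervals lay within a log2 fold change of -1 to 1, which is 2-fold either way, and 24 of 34 lay within -0.5 to 0.5. Of all 15216 genes tested, 13052 had intervals within -1 to 1 and 9419 within -0.5 to 0.5. Among the vascular genes the lowest bound was -0.78 for Emcn and the highest was 0.93 for Slco1a4. Both have few reads (83 to 137 and 54 to 123 counts per library). By point estimate 15 genes were higher and 19 lower in the libraries labelled mutant, a share of 55.9% lower beside 50.1% of all genes, and the median log2 fold change was -0.058 beside -0.00031 over all genes. The p-values measure the spread between these 3 and 3 embryos. In bulk tissue, fewer vascular cells and less RNA per vascular cell cannot be told apart.

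**Figure D1:**
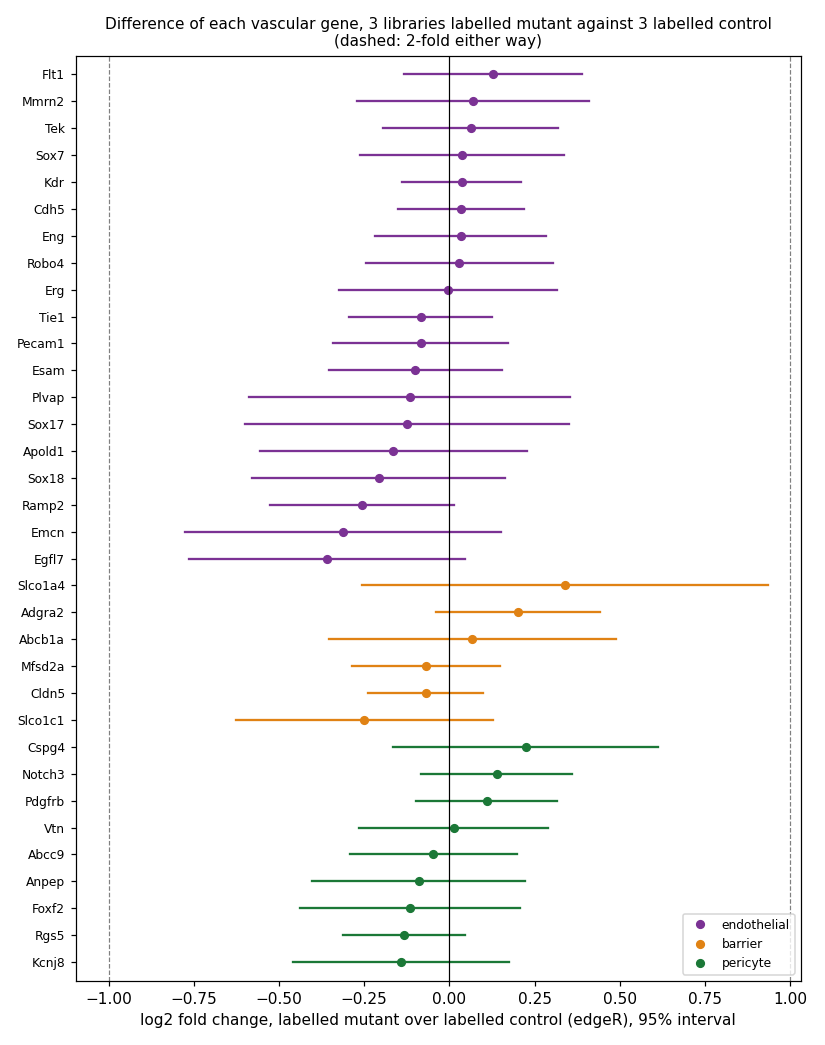
Log2 fold change (libraries labelled mutant over libraries labelled control, x axis) of each of the 34 vascular genes with its 95% interval from the edgeR fit, by list from top to bottom. Every interval crosses 0 and lies inside the dashed lines at -1 and 1, and the widest is that of Slco1a4.

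Vascular RNA was well represented in both groups, and its genes differed widely in level per kb of exon. On this scale Cldn5, the main claudin of brain endothelial tight junctions, was highest at a mean of 44.7 ± 1.0 CPM per kb in the libraries labelled mutant and 46.9 ± 1.9 in those labelled control (SD, n = 3 each). The next levels belonged to 2 pericyte genes: Vtn, encoding vitronectin, had 22.8 CPM per kb in the libraries labelled mutant and 22.7 in those labelled control, and Rgs5, a regulator of G-protein signalling, had 17.7 in the libraries labelled mutant and 19.4 in those labelled control. Cdh5, the VE-cadherin of endothelial junctions, led the endothelial list with 14.9 CPM per kb in the libraries labelled mutant and 14.6 in those labelled control. The lowest was Slco1a4, an organic anion transporter of the mature barrier, at 0.551 CPM per kb in the libraries labelled mutant and 0.437 in those labelled control. Neighbours such as Esam, Pecam1 and Sox18 overlapped in their per-library levels, so their order is not resolved.

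**Figure D2:**
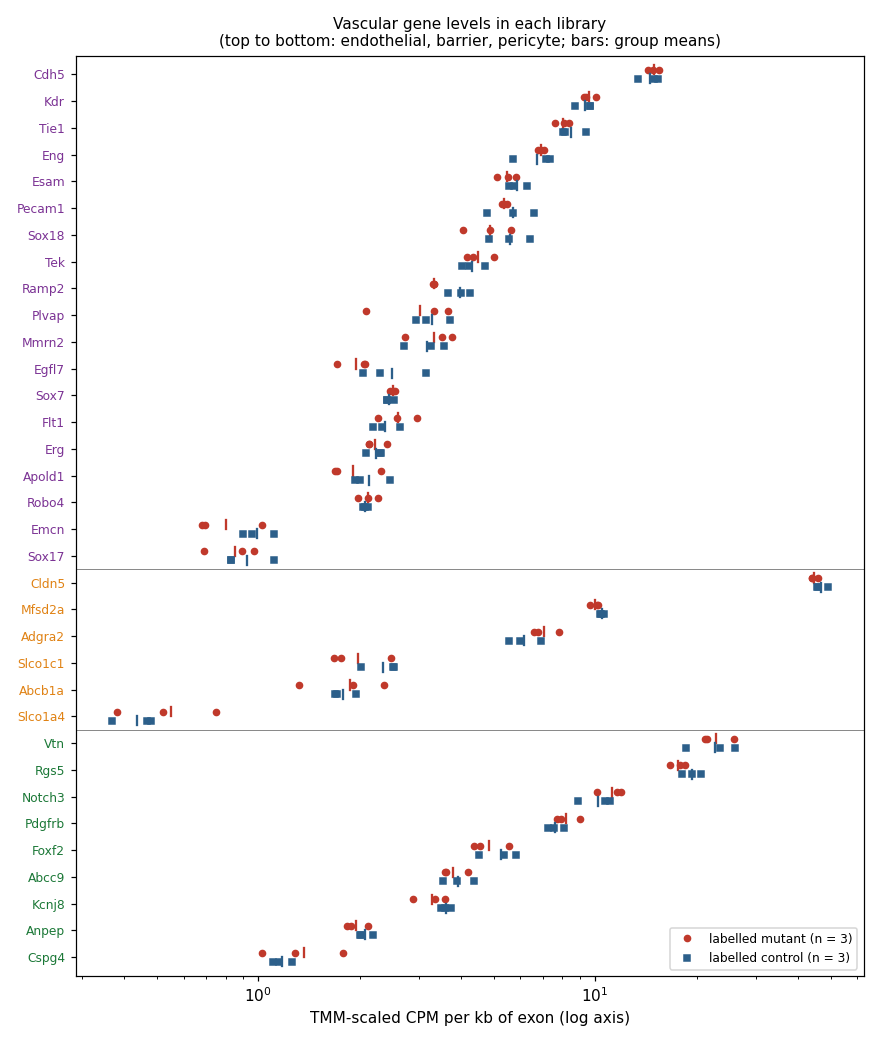
TMM-scaled CPM per kb of exon (log x axis) of the 34 vascular genes in each library, with libraries labelled mutant as circles above and those labelled control as squares below, and a bar at each group's mean. Points of the groups interleave for every gene except Ramp2 and Mfsd2a, while levels differ between genes from under 1 to over 40 CPM per kb.

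Among endothelial receptors, those of VEGF and angiopoietin had group means that lay close together. Kdr, the main VEGF receptor, had 90.6, 83.6 and 84.9 CPM in the libraries labelled mutant, against 87.2, 87.1 and 78.5 CPM in those labelled control. The values interleave, and the log2 fold change was 0.04 with an interval of -0.14 to 0.21. Flt1, a VEGF receptor that acts largely as a decoy, averaged 35.2 ± 4.7 CPM in the libraries labelled mutant and 32.2 ± 3.1 CPM in those labelled control (SD, n = 3 each). Tek (TIE2), the angiopoietin receptor, averaged 21.2 ± 2.1 CPM in the libraries labelled mutant and 20.3 ± 1.6 CPM in those labelled control, with values that interleave. Its partner Tie1 averaged 39.4 ± 1.9 CPM in the libraries labelled mutant and 41.8 ± 3.7 CPM in those labelled control. All 4 of these receptors overlapped between the groups. In the order Kdr, Flt1, Tek and Tie1, the log2 differences were 0.05, 0.35, 0.31 and -0.16 within SPF-539. Within SPF-552 they were 0.03, 0.008, -0.07 and -0.04. Eng, a TGF-beta co-receptor, averaged 27.9 ± 0.6 CPM in the libraries labelled mutant and 27.3 ± 3.6 CPM in those labelled control. It shares exon positions with Fpgs, a protein-coding gene on the opposite strand. Robo4, an endothelial roundabout receptor, averaged 11.25 ± 0.76 CPM in the libraries labelled mutant and 11.03 ± 0.19 CPM in those labelled control.

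Ramp2, which pairs with a calcitonin-receptor-like receptor to form the adrenomedullin receptor, was the endothelial gene whose groups did not overlap. It had 10.93, 10.98 and 10.95 CPM in the libraries labelled mutant, against 13.20, 13.997 and 12.08 CPM in those labelled control. Every library labelled mutant was lower than every library labelled control. The log2 fold change was -0.26 (SE 0.12, interval -0.53 to 0.01, adjusted p = 0.548 by edgeR), and the difference was near the same within both title numbers, at -0.27 in SPF-539 and -0.24 in SPF-552. An exact two-sided permutation test gave p = 0.1, the smallest that 3 against 3 allows. In all, 2 of 34 vascular genes had groups that did not overlap, beside 16.7% of all genes tested, and both were lower in the libraries labelled mutant. Ramp2 shares exon positions with Vps25, a neighbouring protein-coding gene on the same strand, so some reads could belong to either.

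The junction and surface genes of endothelial cells also interleaved between the groups, apart from the scatter of the thinly covered Emcn. Pecam1 (CD31) averaged 33.4 ± 0.6 CPM in the libraries labelled mutant and 35.4 ± 5.6 CPM in those labelled control. For Cdh5 the averages were 62.6 ± 2.5 CPM in the libraries labelled mutant and 61.2 ± 4.4 CPM in those labelled control, so this junction gene interleaved as well. Esam, an endothelial adhesion molecule, averaged 15.7 ± 1.0 CPM in the libraries labelled mutant and 16.8 ± 1.1 CPM in those labelled control. Emcn, an endothelial sialomucin, had 3.68, 5.54 and 3.76 CPM in the libraries labelled mutant, against 5.20, 6.01 and 4.87 CPM in those labelled control. Of the libraries labelled mutant, 2 lay below all of those labelled control and the other lay among them. The log2 fold change was -0.31 (SE 0.21), and without the library labelled mutant 2 it was -0.53 with an adjusted p of 0.601 by edgeR. Plvap, which forms the diaphragms of leaky endothelium and is lost as the barrier matures, averaged 6.01 ± 1.65 CPM in the libraries labelled mutant and 6.50 ± 0.78 CPM in those labelled control.

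The endothelial transcription factors gave intervals that include no difference. Sox18, a SOX factor of vessel growth, had 6.58, 9.12 and 7.92 CPM in the libraries labelled mutant, against 10.4, 7.85 and 8.97 CPM in those labelled control. Its difference stood in 1 pair: log2 -0.65 within SPF-539 and 0.02 within SPF-552, against -0.21 over all libraries (interval -0.58 to 0.16). The related Sox17 averaged 4.06 ± 0.69 CPM in the libraries labelled mutant and 4.41 ± 0.79 CPM in those labelled control, with log2 differences of -0.68 within SPF-539 and 0.16 within SPF-552. Sox7, the remaining SOX F factor, averaged 8.28 ± 0.15 CPM in the libraries labelled mutant and 8.07 ± 0.23 CPM in those labelled control. Erg, the ETS factor of endothelial identity, averaged 7.71 ± 0.57 CPM in the libraries labelled mutant and 7.73 ± 0.42 CPM in those labelled control.

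Egfl7, a secreted endothelial matrix protein whose gene hosts the endothelial microRNA miR-126, had the most negative log2 fold change of the 34 genes. Its levels were 6.15, 7.40 and 7.42 CPM in the libraries labelled mutant, against 11.3, 7.33 and 8.23 CPM in those labelled control. The library labelled control 1 stood above the other 5, and the groups overlapped otherwise. The log2 fold change was -0.36 (SE 0.18, interval -0.76 to 0.05, adjusted p = 0.578 by edgeR). It was -0.16 without the library labelled control 1, and the log2 differences were -0.87 within SPF-539 and -0.07 within SPF-552. Its exons overlap those of Agpat2 and Gm20532 and the library kit does not mark strand, so reads there cannot be assigned to 1 gene with certainty. Mmrn2, an endothelial matrix glycoprotein, averaged 13.2 ± 2.1 CPM in the libraries labelled mutant and 12.6 ± 1.7 CPM in those labelled control. Apold1, an endothelial early-response gene, averaged 6.79 ± 1.25 CPM in the libraries labelled mutant and 7.61 ± 0.99 CPM in those labelled control.

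Of the 6 barrier genes 3 were higher and 3 lower by point estimate, with a median log2 fold change of -0.00087. Cldn5 had 62.6, 64.8 and 62.4 CPM in the libraries labelled mutant, against 69.4, 65.1 and 64.6 CPM in those labelled control. The fitted log2 fold change was -0.07 (SE 0.077, interval -0.24 to 0.10), among the narrowest intervals of the set. Mfsd2a, the lipid transporter that restrains transcytosis at the barrier, had 23.0, 21.7 and 22.7 CPM in the libraries labelled mutant, against 24.0, 23.3 and 23.5 CPM in those labelled control. These groups did not overlap, but the difference was small, with a log2 fold change of -0.07 (interval -0.29 to 0.15) and an exact two-sided permutation p of 0.1.

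Adgra2, the Wnt7 co-receptor that brain endothelium needs for barrier formation, had 45.0, 39.1 and 37.9 CPM in the libraries labelled mutant, against 39.8, 34.4 and 32.0 CPM in those labelled control. Within SPF-539 the library labelled mutant was above the 1 labelled control, and within SPF-552 both libraries labelled mutant were above both labelled control. The log2 differences were 0.18 in SPF-539 and 0.21 in SPF-552, and the log2 fold change over all libraries was 0.20 (SE 0.11, interval -0.04 to 0.44, adjusted p = 0.612 by edgeR). With the title number as a block its unadjusted p was under 0.05 and no vascular gene's adjusted p was below 0.321. Adgra2 shares exon positions with Brf2 on the opposite strand.

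The transporters of the barrier varied between libraries of 1 group. Slco1c1 (OATP1C1), which carries thyroxine into the brain, had 12.89, 9.12 and 8.69 CPM in the libraries labelled mutant, against 13.04, 13.08 and 10.48 CPM in those labelled control. The library labelled mutant 1 lay among those labelled control and the other 2 were below all those labelled control. Its log2 fold change was -0.25 (SE 0.17, adjusted p = 0.703 by edgeR), with -0.02 within SPF-539 and -0.39 within SPF-552. Without the library labelled mutant 1 it was -0.45 with an adjusted p of 0.161, the smallest of any vascular gene under any alternative run.

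Slco1a4 (OATP1A4), also on chromosome 6, had a point estimate of the other sign, with 4.82, 3.34 and 2.44 CPM in the libraries labelled mutant, against 2.35, 3.07 and 2.99 CPM in those labelled control. Its log2 fold change of 0.34 (SE 0.27) rested on the library labelled mutant 1, since it was 0.04 without that library. Abcb1a (P-glycoprotein), the drug efflux pump, had 267, 272 and 160 counts in the libraries labelled mutant, against 227, 243 and 226 counts in those labelled control. Its close paralogue Abcb1b had 23, 1 and 5 counts in the libraries labelled mutant, against 5, 19 and 19 counts in those labelled control. Any reads shared by these paralogues could have been split in different ways, so the Abcb1a value is uncertain.

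Pericyte genes numbered 4 higher and 5 lower by point estimate, with a median log2 fold change of -0.048. Pdgfrb, the receptor through which pericytes are recruited, had 49.3, 43.5 and 42.2 CPM in the libraries labelled mutant, against 44.3, 41.2 and 39.6 CPM in those labelled control. The groups overlapped, and the log2 fold change was 0.11 (interval -0.10 to 0.32). Rgs5, the most abundant pericyte transcript per kb after Vtn, had 75.8, 81.2 and 84.0 CPM in the libraries labelled mutant, against 82.5, 94.0 and 87.9 CPM in those labelled control. Its log2 fold change was -0.13 (SE 0.082, interval -0.31 to 0.05, adjusted p = 0.664 by edgeR), with -0.12 within SPF-539 and -0.14 within SPF-552. Pdgfrb and Rgs5 are both in the pericyte list, and their point estimates had opposite signs.

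Notch3, the Notch receptor of mural cells, which neural progenitors also express, had 81.8, 94.0 and 96.8 CPM in the libraries labelled mutant, against 71.8, 89.3 and 86.6 CPM in those labelled control. In both groups the SPF-539 library was lowest, and the log2 fold change was 0.14 (SE 0.10, interval -0.08 to 0.36). Kcnj8 and Abcc9, the Kir6.1 and SUR2 subunits of the pericyte potassium channel and neighbours on chromosome 6 (142564837 to 142571614 and 142587862 to 142702315, GRCm38), had log2 fold changes of -0.14 and -0.05. Kcnj8 averaged 8.33 ± 0.92 CPM in the libraries labelled mutant and 9.18 ± 0.34 CPM in those labelled control, and Abcc9 averaged 31.8 ± 2.8 CPM in the libraries labelled mutant and 32.9 ± 3.5 CPM in those labelled control. Neither subunit separated the groups. Vtn averaged 46.4 ± 5.3 CPM in the libraries labelled mutant and 46.0 ± 7.7 CPM in those labelled control. Anpep (aminopeptidase N) averaged 8.04 ± 0.65 CPM in the libraries labelled mutant and 8.56 ± 0.45 CPM in those labelled control. Foxf2, a forkhead factor of brain pericytes, averaged 11.4 ± 1.5 CPM in the libraries labelled mutant and 12.4 ± 1.5 CPM in those labelled control.

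Cspg4 (NG2), a proteoglycan of pericytes and also of oligodendrocyte precursors, had 21.3, 15.3 and 12.3 CPM in the libraries labelled mutant, against 13.8, 15.1 and 13.2 CPM in those labelled control. Only the library labelled mutant 1 stood out, and without it the log2 fold change was -0.02, against 0.22 (SE 0.18) over all libraries. Of 6 oligodendrocyte precursor markers, 4 were also highest in that library (Olig1, Sox10, Pdgfra and Gpr17) and 2 were not (Olig2 and Lhfpl3). The summed level of all 6 was 109.2, 94.99 and 95.81 CPM in the libraries labelled mutant, against 90.18, 88.24 and 91.67 CPM in those labelled control. Most of the excess was Pdgfra, which meningeal fibroblasts also express, at 50.5 CPM in the library labelled mutant 1 and 38.0 to 40.6 CPM in the other 5. Olig2 ran otherwise, with 21.9, 26.9 and 30.2 CPM in the libraries labelled mutant, against 19.5, 20.7 and 24.2 CPM in those labelled control. The part of these cells in the Cspg4 value was not tested.

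Library by library, the 3 lists differed between the groups by less than the distance between libraries of 1 group. The median endothelial gene deviated from the control mean by -0.05, 0.01 and -0.07 log2 units in the libraries labelled mutant, against 0.05, 0.04 and -0.11 in those labelled control. For barrier genes the medians were 0.09, 0.06 and -0.14 in the libraries labelled mutant, against 0.05, 0.04 and -0.06 in those labelled control. For pericyte genes they were 0.09, -0.08 and -0.10 in the libraries labelled mutant, against -0.02, 0.06 and -0.01 in those labelled control. The groups overlapped in the endothelial list. In the other 2 lists the libraries labelled mutant lay on both sides of all those labelled control: 2 above and 1 below for barrier genes, and 1 above and 2 below for pericyte genes. Summed over its 19 genes, the endothelial list held 414, 411 and 403 CPM in the libraries labelled mutant, against 438, 423 and 379.9 CPM in those labelled control.

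**Figure D3:**
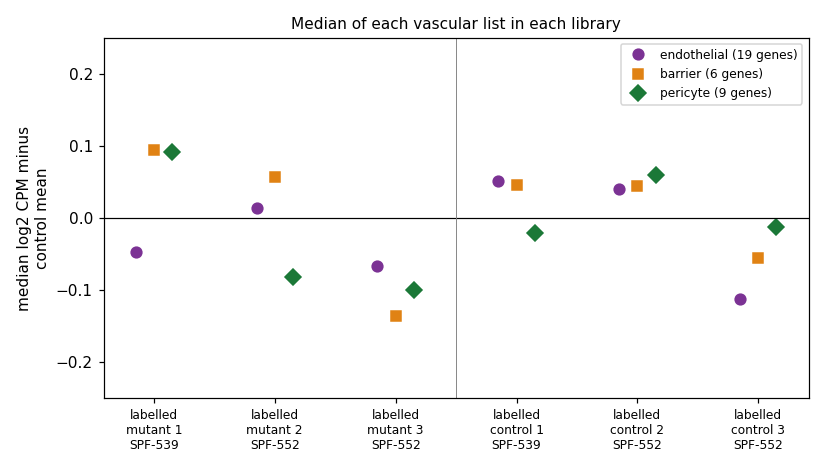
Median over the genes of each list of the log2 CPM minus the mean of the libraries labelled control (y axis), in the 3 libraries labelled mutant (left) and the 3 labelled control (right), with the title number under each. All medians lie between -0.14 and 0.10, and for endothelial genes the lowest library is labelled control 3.

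The title numbers split the libraries on the first principal component of all genes, which held 29.5% of the variance. Within SPF-539, 15 of 19 endothelial genes were lower in the library labelled mutant than in the 1 labelled control, with a median log2 difference of -0.16. Within SPF-552, 7 of 19 were lower in the libraries labelled mutant, with a median of 0.02. Of all 15216 genes tested, 7827 were lower within SPF-539 and 7491 within SPF-552, with medians of -0.012 and 0.0028. The endothelial median over all libraries, -0.08, was 0.023 without the library labelled control 1. Barrier genes had medians of 0.07 within SPF-539 and -0.05 within SPF-552, and pericyte genes 0.05 and -0.08 in the same order. The SPF-539 values compare 1 embryo with 1 embryo and have no replicate check.

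Within SPF-539 the vascular differences also followed transcript length. Across the 34 genes, Spearman's rho between exon length and the log2 difference was 0.60 within SPF-539 and 0.04 within SPF-552, and across all 15181 genes with a length it was 0.42 and -0.014 in the same order. These are descriptions over genes of the same libraries, with no p. The 12 vascular genes with the shortest exons (1416 to 3567 bases) had a median log2 difference of -0.16 within SPF-539 and -0.0078 within SPF-552, and the 12 with the longest (5302 to 13504 bases) had 0.17 and -0.0012. All genes in these same length ranges had medians of -0.17 (4642 shorter genes) and 0.11 (5404 longer genes) within SPF-539, so the vascular medians had the signs of other genes of their length. Sox18, Egfl7 and Plvap are among the short or middle-length genes that were lower in the library labelled mutant 1 than in the library labelled control 1, and Cspg4 and Flt1 are the longest. The part of length in any single gene's value was not tested.

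**Figure D4:**
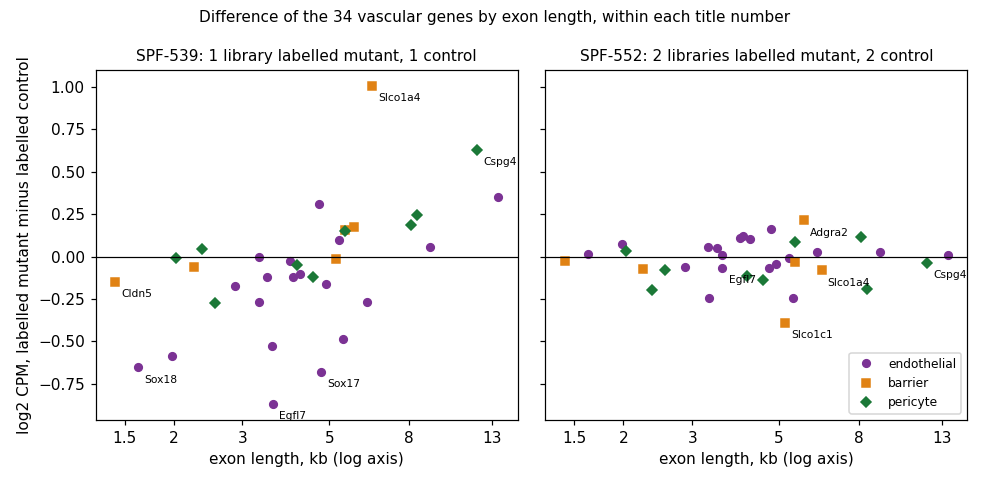
Log2 difference in CPM (libraries labelled mutant minus libraries labelled control, y axis) against exon length (log x axis) for the 34 vascular genes, within SPF-539 on the left and SPF-552 on the right. Values rise with length within SPF-539 (rho 0.60) and show no such order within SPF-552 (rho 0.04).

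Blood and other non-neural cells were compared through their own markers. Summed over 11 erythroid markers, the level was 2030, 1654 and 1537 CPM in the libraries labelled mutant, against 3020, 1694 and 1540 CPM in those labelled control. This sum was highest in the library labelled control 1, though the embryonic globins Hbb-y and Hba-x were not highest there. That library also had the highest summed endothelial level, and the part of blood content in the endothelial values was not tested. Meningeal fibroblast markers, 12 genes, summed to 821, 753 and 746 CPM in the libraries labelled mutant, against 870, 781 and 628 CPM in those labelled control. The library labelled control 3 was lowest in this list and in the endothelial list. The 11 microglial markers summed to 95.02, 95.04 and 91.83 CPM in the libraries labelled mutant, against 94.47, 96.18 and 91.55 CPM in those labelled control. The 9 choroid plexus markers summed to 205, 252 and 281 CPM in the libraries labelled mutant, against 262, 284 and 298 CPM in those labelled control. Emx1, a marker of the dorsal telencephalon, was detected in all 6 libraries. Of 10 forebrain markers 4 were higher and 6 lower, with a median log2 fold change of -0.04 and a lowest value of -0.90. By edgeR's quasi-likelihood test 1 of 10 was called lower (0.138% of all genes called), and 5 had an unadjusted p under 0.05 (9.60% of all genes). In the authors' deposited table the forebrain marker Neurod6 is at log2 -0.91 with an FDR of 1.02e-14.

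The wider vascular pathways were followed through 8 further lists, in which 0 genes passed edgeR's quasi-likelihood test. Wnt7b, a neural Wnt ligand that induces the barrier, came nearest among genes that were lower. It averaged 153 ± 11.9 CPM in the libraries labelled mutant and 195 ± 16.0 CPM in those labelled control (SD, n = 3 each). Its log2 fold change was -0.35 (SE 0.088, adjusted p = 0.189), with -0.35 within SPF-539 and -0.34 within SPF-552. DESeq2, the title-number block and the SPF-552 libraries each called it lower, and in the authors' deposited table it is at log2 -0.34 with an FDR of 0.0129. Wnt7a, also a neural Wnt7 ligand, averaged 46.4 ± 4.8 CPM in the libraries labelled mutant and 45.1 ± 5.4 CPM in those labelled control. The log2 fold change of Wnt7a was 0.04 (interval -0.20 to 0.28), and it was named after its value was seen. Lrp5, a Wnt co-receptor, averaged 33.0 ± 1.1 CPM in the libraries labelled mutant and 38.2 ± 0.4 CPM in those labelled control, with an adjusted p of 0.459. The list of Wnt and barrier induction had 7 higher and 7 lower of 14 genes and a median of 0.02, with 2 at an unadjusted p under 0.05 (9.60% of all genes).

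Nr2f2 (COUP-TFII), a determinant of venous identity that forebrain neural cells also express, averaged 261 ± 13.5 CPM in the libraries labelled mutant and 210 ± 5.4 CPM in those labelled control. Its log2 fold change was 0.31 (SE 0.075, adjusted p = 0.166), DESeq2 and the SPF-552 libraries called it higher, and in the authors' deposited table it is at log2 0.32 with an FDR of 0.0464. Jag1, a Notch ligand, averaged 42.9 ± 5.3 CPM in the libraries labelled mutant and 34.7 ± 1.4 CPM in those labelled control, with an adjusted p of 0.354. Of the 13 Notch and arteriovenous genes 7 were higher and 6 lower, with a median of 0.04 and 3 at an unadjusted p under 0.05 (9.60% of all genes). Among 15 VEGF, angiopoietin and apelin genes 9 were higher and 6 lower, with a median of 0.03 and 3 at an unadjusted p under 0.05 (9.60% of all genes), all higher in the libraries labelled mutant. The 2 with the smallest p in that list were the semaphorin receptor Plxnd1 (log2 0.27, SE 0.099, adjusted p = 0.387) and the co-receptor Nrp2 (log2 0.18, SE 0.076, adjusted p = 0.486). The other was Angpt1, a TEK ligand (log2 0.31, SE 0.13, adjusted p = 0.486), named after its value was seen. These 3 of the 15 genes had groups that did not overlap, beside 16.7% of all genes tested.

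Vascular basement membrane genes included 8 higher and 4 lower of 12, with a median of 0.07 and 4 at an unadjusted p under 0.05 (9.60% of all genes). Fn1 (fibronectin) averaged 240 ± 24.8 CPM in the libraries labelled mutant and 194 ± 5.4 CPM in those labelled control (log2 0.31, SE 0.087, adjusted p = 0.237), and in the authors' deposited table it is at log2 0.29 with an FDR of 0.0829. Hspg2 (perlecan) averaged 95.31 ± 14.004 CPM in the libraries labelled mutant and 75.88 ± 7.97 CPM in those labelled control, with an adjusted p of 0.362. Meningeal and choroid cells make these matrix genes as well, so they are not specific to vessels. None of the 34 vascular genes is among the 369 genes of the authors' deposited table, which lists genes up to an FDR of 0.0994.

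The other 4 lists gave no unadjusted p under 0.05 apart from 2 of 20 tested endothelial genes (9.60% of all genes). These were Vwf, the von Willebrand factor (log2 0.27, adjusted p = 0.392), and Palmd (log2 -0.34, adjusted p = 0.403), in a list of 20 tested genes with a median of -0.03. In the list of other barrier transporters and junctions the smallest p belonged to the efflux pump Abcg2 (log2 -0.29, adjusted p = 0.524) and the junction gene Jam2 (log2 0.18, adjusted p = 0.641), with a list median of 0.03. Among 13 genes of PDGF-B and TGF-beta signalling the receptor Tgfbr1 (log2 0.14, adjusted p = 0.581) and the integrin Itgav (log2 0.21, adjusted p = 0.607) came first, with a list median of 0.05. Among 17 tested mural and smooth muscle genes the forkhead factor Foxs1 (log2 -0.68, SE 0.35, adjusted p = 0.578) and the connexin Gjc1 (log2 -0.13, adjusted p = 0.718) came first, with a list median of 0.09. Foxs1 averaged only 0.806 CPM in the libraries labelled mutant and 1.29 CPM in those labelled control. Ly6c1, Ly6a and Cnn1 had too few reads to be tested.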

How the data were processed

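Total RNA from mouse forebrain was sequenced from TruSeq v2 libraries, a kit that does not mark strand. Per the submitters' processing notes, TopHat2 2.0.9, HTSeq 0.5.4p5 and edgeR 3.4.2 were used with mm10/GRCm38, with no order of steps stated. The authors deposited 1 table of estimated counts per Ensembl gene for the 6 libraries, in which 22.7 to 24.9% of the values of a library are not whole. Which tool made them is not stated, and the estimated counts were rounded. The authors' deposited table of their own comparison holds log2 fold changes, a test score and p-values with FDR, and is quoted only where named. Columns matched samples by the title numbers in their names.

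Gene symbols and exon lengths came from GENCODE M21 and matched 99.4% of rows (214 did not match). Genes were filtered with filterByExpr (minimum count 10, total 15), scaled by TMM and tested with edgeR 4.0.16 in R 4.3.3 (robust quasi-likelihood fit, labelled mutant over labelled control, adjusted p under 0.05). The test was also run on simulated counts with known changes, drawn from the means and dispersions of these data. Those counts held no title-number effect, and their changes were larger than any vascular point estimate. That run therefore does not bear on the small vascular differences. Over all genes the median SE of a log2 fold change was 0.125, at a common biological variation of 12.3%. Log2 CPM used a prior count of 2, and CPM per kb is CPM over exon length. Libraries of 1 group differed by more than sampling noise. Replicates were numbered by accession, so a shared number is no pairing. The title number, whose meaning the labels do not give, was used only as an alternative block.

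Every vascular gene is named. The values of each library and the log2 fold change are given for at least the 4 smallest p and the highest CPM in each list. In pathway lists the 2 smallest p are named. The vascular genes and all lists were chosen with earlier results of these data known. Alternatives were RLE and upper-quartile scaling, DESeq2 1.42.0, no filter, the block, the SPF-552 libraries alone and leaving out each library; the likelihood-ratio test was added after seeing the data. Of the 34 genes, 9 share exon positions with other annotated genes (4 with protein-coding ones).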

Additional observations from a re-analysis of the deposited data

How the results depend on the processing

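The count of vascular genes called was 0 of 34 under all 13 alternatives. The number of all genes called moved far more: against 21, it was 194 with DESeq2, 130 with no filter, 116 with the title number as a block, 564 within the SPF-552 libraries, 150 with the likelihood-ratio test and 3 to 330 when each library was left out. The highest, 330, was without the library labelled mutant 1, and the cause was not tested. The endothelial median of -0.084 was 0.022 within SPF-552 and ran from -0.127 to 0.023 over the libraries left out, turning positive without the library labelled control 1, and the pericyte median of -0.048 ran from -0.087 to 0.036, turning positive without the library labelled control 2. The barrier median of -0.00087 ran from -0.070 without the library labelled mutant 2 to 0.094 without that labelled mutant 3, so its sign is not fixed. Of the 119 tested pathway genes DESeq2 called 2 (Nr2f2 and Wnt7b; 1.68% beside 1.27% of all genes) and the block 1 (Wnt7b; 0.840% beside 0.762%). SPF-552 called 5 of 120 (Fn1, Nr2f2, Nrp1, Plxnd1 and Wnt7b; 4.17% beside 3.70%), and leaving out libraries called 0 to 3. These shares are near those of all genes. Sap130 stayed higher in the libraries labelled mutant, at log2 0.56 to 0.64 over the libraries left out, but its adjusted p passed 0.05 without the library labelled mutant 2 (0.0689) and without those labelled control 1, 2 and 3 (0.0976, 0.111 and 0.0798). Log2 fold changes were followed for 13 vascular genes, those with the 4 smallest p and the highest CPM in each list. Of their 169 values, 10 differed from the main value by its SE or more or had the other sign. Depth limits Emcn, Sox17 and Slco1a4 most. RLE and upper-quartile scaling moved the median of all genes to 0.0028 and -0.014.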

Other observations

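Embryonic and adult globins, which mark the blood carried in these vessels, were not in 1 ratio across libraries. Hbb-y, an embryonic beta-type globin, had 30.0, 102 and 104 CPM in the libraries labelled mutant, against 75.0, 86.3 and 82.0 CPM in those labelled control. Hba-x, an embryonic alpha-type globin, had 6.54, 23.3 and 23.9 CPM in the libraries labelled mutant, against 17.1, 28.8 and 19.4 CPM in those labelled control. Both were lowest in the library labelled mutant 1. The adult globin Hbb-bs was not low there: it had 580, 447 and 402 CPM in the libraries labelled mutant, against 872, 478 and 438 CPM in those labelled control. The groups overlapped for all 3 genes, which were chosen after their values were seen.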
